A study of Mus musculus with 12 samples.

Results

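Excitation-contraction coupling genes encode the machinery by which an action potential in a skeletal muscle fibre releases calcium from the sarcoplasmic reticulum. The 10 genes described here are Ryr1, Ryr3, Cacna1s, Cacna2d1, Cacnb1, Cacng1, Stac3, Jph1, Jph2 and Jsrp1, picked by symbol from 37287 gene IDs, and all 10 were found. They were read in poly(A) RNA of mouse embryonic fibroblasts (MEFs) that carry the genotype MyoD-/-; Myf5-/-, so the cells of every group, controls included, lack both myogenic determination factors. Cells received lentivirus with 8 µg/ml polybrene for 24 h and were then kept for 20 h in differentiation medium. Fetal bovine serum is listed at 10% for every library. Groups were MyoD virus at a 1x and a 2x dose (1 library each), Myf5 virus at a 1x and a 2x dose (1 library each), untransduced cells (1 library), and GFP virus as control (4 libraries at a multiplicity of infection, MOI, of 15, 30, 60 and 120, and 1 library at the 1x dose). A second table held 1x Chimera virus and 1x MyoD from a second virus batch that was balanced against it (1 library each). The makeup of Chimera, and how a dose of 1x relates to an MOI, are not given in the sources used here. Nothing states that the libraries of a group came from separate cultures, so p-values measure the spread between these libraries, and in the MyoD and Myf5 groups that spread includes the dose.

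In skeletal muscle the voltage sensor of the transverse tubule, the dihydropyridine receptor, touches the ryanodine receptor of the sarcoplasmic reticulum and opens it mechanically. Cacna1s encodes the pore and voltage sensor of the dihydropyridine receptor, with Cacna2d1, Cacnb1 and Cacng1 as its accessory subunits, Ryr1 and Ryr3 encode release channels, and Stac3 encodes the adaptor that skeletal coupling needs. Junctophilins (Jph1, Jph2) tie the tubule to the reticulum, and Jsrp1 encodes JP-45, a junctional reticulum protein that binds the voltage sensor. Fibroblasts lack this junction, and MyoD and Myf5 are basic helix-loop-helix proteins that bind E-boxes, sites of the form CANNTG.

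Promoter sequences of 3 members are printed because their E-box content differs while all 3 genes were higher with MyoD. Each is the stretch of 250 bases that ends just before the gene's start in RefSeq (build GRCm38.p6, whereas the counts are on mm9), read 5′ to 3′ on the gene's strand, and capitals mark CAGCTG, an E-box that is its own reverse complement.
Ryr1: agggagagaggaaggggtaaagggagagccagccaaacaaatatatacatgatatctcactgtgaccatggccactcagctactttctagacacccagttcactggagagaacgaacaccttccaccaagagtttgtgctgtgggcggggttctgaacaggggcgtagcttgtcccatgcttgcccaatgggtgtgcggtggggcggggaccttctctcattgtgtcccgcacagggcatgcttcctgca
Cacna1s: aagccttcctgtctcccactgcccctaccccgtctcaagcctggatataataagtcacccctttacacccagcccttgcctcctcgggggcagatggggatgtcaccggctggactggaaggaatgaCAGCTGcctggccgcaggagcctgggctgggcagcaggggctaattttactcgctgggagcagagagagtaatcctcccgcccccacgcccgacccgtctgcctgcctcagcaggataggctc
Jph2: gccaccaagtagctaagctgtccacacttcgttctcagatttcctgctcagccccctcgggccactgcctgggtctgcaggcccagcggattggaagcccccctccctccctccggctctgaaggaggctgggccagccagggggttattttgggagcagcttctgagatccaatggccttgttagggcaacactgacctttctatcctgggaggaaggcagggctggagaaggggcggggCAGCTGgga
The Ryr1 stretch (chr7:29125152-29125401, minus strand) held no CANNTG at all. The Cacna1s stretch (chr1:136052561-136052810, plus strand) held 1 CAGCTG, which begins at position -123 from the start, among 2 CANNTG. The Jph2 stretch (chr2:163397994-163398243, minus strand) held 1 CAGCTG at position -9, its only CANNTG. From a second listed start site of Jph2, not printed, the same CAGCTG lies at position -29. Searched on both strands in windows of the same length, CAGCTG occurred in 13% of 32851 promoters, CACCTG or its reverse complement CAGGTG in 17.2%, and any CANNTG, which includes both, in 66.2%. Promoters of 5 of the 10 members were matched. None of the 5 held CACCTG or its reverse complement. The stretch of Cacna2d1 held no E-box, and of 2 start sites of Cacnb1 the first held none and the other 1. A match is a run of letters and not a measured site. Ryr3, Cacng1, Stac3, Jph1 and Jsrp1 were not matched.

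The libraries of the first table held 17.9 to 22.4 M counts (M, mega) in the 4 MOI libraries and 68.3 to 81.5 M in the other 6, and Chimera and second-batch MyoD held 25.1 and 23.7 M. Levels are given as counts per M counts (CPM). Myod1 stood at 309 and 617 CPM with 1x and 2x MyoD and at 5.44 to 5.99 CPM with GFP, and Myf5 at 149.5 and 249 CPM with 1x and 2x Myf5 and at 17.3 to 20.8 CPM with GFP. Within GFP, 1x GFP stood apart, with a chi-square over its degrees of freedom of 55.9 to 124 against each MOI library and 1.92 to 15.9 among the MOI libraries, and results against 1x GFP alone are given beside those whose call they change. Which part of each gene is missing in these cells is not given here, so the counts in the controls do not check the genotype. The fibroblast markers, all 8 counted in every library, summed to 9666 to 13431 CPM with MyoD, 13805 to 16456 CPM with Myf5, 17764 CPM without virus and 18831 to 22920 CPM with GFP. The 8 cardiac markers summed to at most 3.21 CPM in any library, and Nkx2-5 was at 0 in all libraries except 1x MyoD. Neuron markers summed to 5.74 to 17.4 CPM and endothelial markers to 0.571 to 2.39 CPM. The 6 macrophage markers summed to 16.4 to 17.8 CPM with MyoD, 15.5 to 16.5 CPM with Myf5, 13.4 CPM without virus and 11.2 to 14.9 CPM with GFP, and to 11.0 and 15.7 CPM with Chimera and second-batch MyoD. Their sum was thus higher in the MyoD and Myf5 libraries than in GFP, with Adgre1 at 0 throughout, and the part of these markers in the results was not tested. Taken singly in the edgeR test described below, Csf1r was called higher with MyoD, and Cd68 and Lyz2 were not. With Myf5 none of them was called. Cd68 had log2 fold changes against GFP of -0.36 with MyoD and -0.05 with Myf5. In the same order Csf1r had 0.48 and 0.18, and Lyz2 had 1.04 and 1.445.

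MyoD against GFP asks which coupling genes the factor raises in cells that lack both factors. All 10 genes were higher in both MyoD libraries than in each of the 5 GFP libraries. The same held for 23.2% of the 13825 genes tested (those at 1 CPM or more in 2 or more libraries). Ryr3, Cacna1s and Cacng1 did not pass this filter, so this share and the like shares for Myf5 and dose below leave them out. Jsrp1, Ryr1 and Stac3 showed the largest fold changes of the 7 members that passed this filter, and Cacna2d1 the smallest. All 7 were called higher by edgeR's quasi-likelihood test (adjusted p under 0.05), against 21.4% of all genes tested, and none lower, against 20.9%. Ryr1 and Jsrp1 passed the filter only through libraries with MyoD or Myf5, so that they could not have been tested unless they differed. The median log2 fold change was 1.88 over the 7 members and -0.03 over all genes tested. In bulk RNA, more cells that respond and more RNA per responding cell cannot be told apart. The fibroblast marker sum was lower in both MyoD libraries than in every GFP library, and the part of that in each value was not tested. Taken singly, Col1a2 (log2 fold change -0.20) and Thy1 (0.05) were not called with MyoD, and the other fibroblast markers were called lower. The fibroblast marker sum was also lower in the untransduced library than in every GFP library. There Stac3, Cacnb1, Cacna2d1, Jph1 and Cacna1s, the last at 0 counts, were lower than in every GFP library, and Jph2 was higher. The log2 fold changes of single fibroblast markers without virus ran from -1.17 for Dcn to 0.45 for Thy1.

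**Figure D1:**
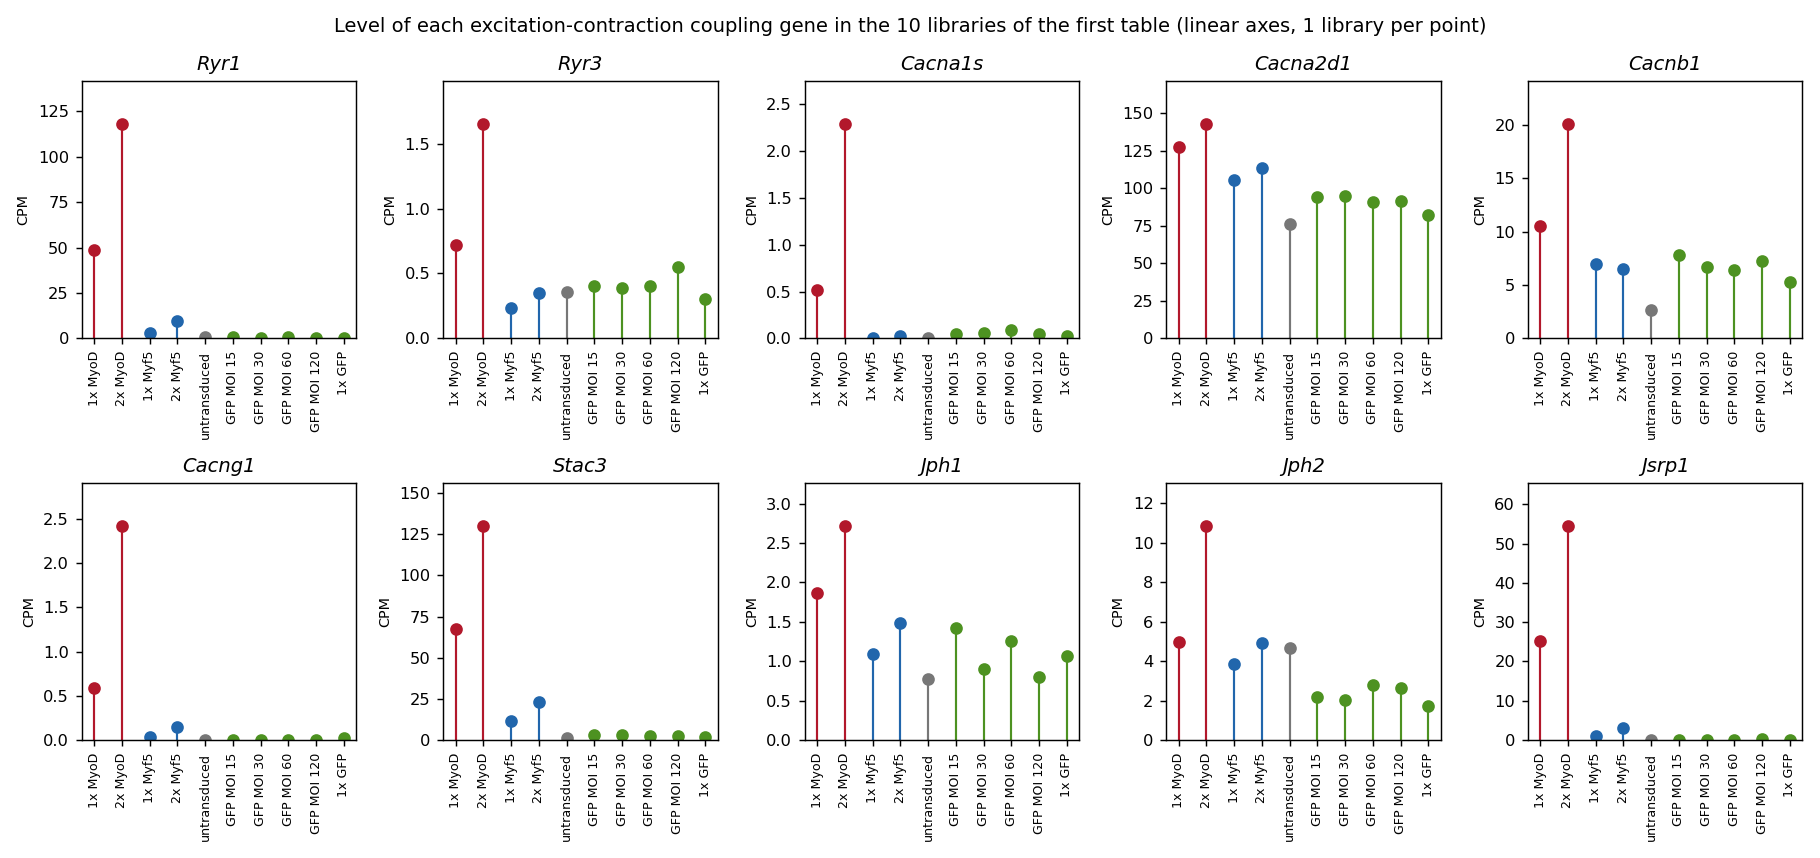
CPM of each of the 10 genes (vertical axes, linear, a scale for each gene) in the 10 libraries of the first table, MyoD in red, Myf5 in blue, untransduced in grey and GFP in green, 1 library per point. Both MyoD points lie above every GFP point in all 10 panels, and the Myf5 points of Cacnb1, Ryr3 and Cacna1s lie among or below the GFP points.

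Among the release channels, Ryr1, the skeletal muscle isoform, had 48.8 and 118 CPM with 1x and 2x MyoD, 3.18 and 9.48 CPM with 1x and 2x Myf5, 0.523 CPM untransduced, and 0.507, 0.448, 0.536, 0.1496 and 0.393 CPM in the GFP libraries (MOI 15, 30, 60, 120 and 1x). Every MyoD and Myf5 library was above every control library, and the MyoD libraries were above both Myf5 libraries. The log2 fold change was 7.73 ± 0.51 (SE) for MyoD against GFP (edgeR adjusted p = 3.71e-05) and 3.98 ± 0.54 for Myf5 against GFP (edgeR adjusted p = 0.00544). Ryr3, an isoform that muscle carries mainly during development, had 0.720 and 1.65 CPM with 1x and 2x MyoD, 0.234 and 0.350 CPM with 1x and 2x Myf5, 0.358 CPM untransduced, and 0.405, 0.392, 0.402, 0.548 and 0.307 CPM in the GFP libraries in the same order. Only 2x MyoD reached 1 CPM, the Myf5 libraries overlapped GFP, and the gene was below the filter. Fitted without a filter over 24992 genes, of which 12.4% were called higher, Ryr3 rose by 1.64 ± 0.36 on the log2 scale with MyoD (edgeR adjusted p = 0.00670). Without 2x MyoD its log2 fold change was 0.89 and the call was lost (edgeR adjusted p = 0.219). Ryr3 overlaps Aven on the opposite strand by 916 nt of annotated exon, and whether the counting used strand is not given, so its low counts may include reads of Aven. Opposite-strand exons also overlap Ryr1 (Gm26604 by 864 nt, Gm44408 by 50 nt), Cacna1s (Gm37759 by 1309 nt) and Jph1 (Gm28376 by 34 nt). Those overlapping genes were not among the IDs counted, and the part of their reads in these members was not tested. Ryr2, the cardiac isoform, had 0 counts in both MyoD libraries of the first table.

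The subunits of the voltage sensor ranged from barely detected to abundant. Cacna1s, its pore, had 0.521 and 2.29 CPM with 1x and 2x MyoD, 0 and 0.0292 CPM with 1x and 2x Myf5, 0 CPM untransduced, and 0.0507, 0.0560, 0.0894, 0.0499 and 0.0245 CPM in the GFP libraries. Only the MyoD libraries stood above GFP, and the 0 counts with 1x Myf5 and without virus allow up to 0.0439 and 0.0413 CPM (3 counts). Summed over libraries, 218 counts with MyoD stood against 7 with GFP, a ratio of summed CPM of 32.0 with a 95% counting interval of 15.3 to 80.5. Cacna1s was also below the filter, and without a filter its log2 fold change was 4.94 ± 0.67 (edgeR adjusted p = 0.000399).

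Cacng1, the gamma subunit, had 0.583 and 2.42 CPM with 1x and 2x MyoD, 0.0293 and 0.146 CPM with 1x and 2x Myf5, 0 CPM untransduced, 0 CPM in the 4 MOI libraries and 0.0245 CPM in 1x GFP. The MyoD libraries were far above all others, and both Myf5 libraries were above GFP by a few counts. With 233 counts against 2, the ratio of summed CPM for MyoD over GFP was 119.6, with a counting interval of 32.7 to 993. For Myf5 the 12 counts against 2 gave a ratio of 7.09 with an interval of 1.58 to 65.2. Cacng1 passed the test without a filter for MyoD (edgeR adjusted p = 0.000220) and not for Myf5 (edgeR adjusted p = 0.262), and its fitted fold change depends on the prior count.

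Cacna2d1, the alpha-2-delta subunit that carries the channel to the membrane, had 127 and 143 CPM with 1x and 2x MyoD, 106 and 114 CPM with 1x and 2x Myf5, 76.4 CPM untransduced, and 94.1, 95.01, 90.8, 91.2 and 82.1 CPM in the GFP libraries. The gene was already abundant in the fibroblasts, and the groups did not overlap. It rose by 0.63 ± 0.07 on the log2 scale with MyoD (edgeR adjusted p = 0.000349). Cacnb1, the beta subunit of the skeletal channel, had 10.6 and 20.1 CPM with 1x and 2x MyoD, 6.95 and 6.51 CPM with 1x and 2x Myf5, 2.67 CPM untransduced, and 7.80, 6.66, 6.44, 7.23 and 5.30 CPM in the GFP libraries. The MyoD libraries were above GFP, the Myf5 libraries lay inside the GFP range, and the untransduced library was the lowest of all. With MyoD it rose by 1.26 ± 0.22 on the log2 scale (edgeR adjusted p = 0.00264). With Myf5 the log2 fold change was 0.05 ± 0.24 (edgeR adjusted p = 0.906). Cacnb1 overlaps Gm11629 on the opposite strand by 80 nt.

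Stac3, the adaptor, had 67.1 and 130.2 CPM with 1x and 2x MyoD, 11.6 and 23.1 CPM with 1x and 2x Myf5, 1.17 CPM untransduced, and 3.19, 3.19, 2.50, 2.29 and 1.82 CPM in the GFP libraries. All MyoD libraries were above all Myf5 libraries, and those above all controls. Its log2 fold change was 5.35 ± 0.33 with MyoD (edgeR adjusted p = 2.68e-05) and 2.82 ± 0.33 with Myf5 (edgeR adjusted p = 0.00286). Jsrp1 had 25.2 and 54.6 CPM with 1x and 2x MyoD, 1.16 and 3.01 CPM with 1x and 2x Myf5, 0.0275 CPM untransduced, and 0.0507, 0.112, 0, 0.1496 and 0.0981 CPM in the GFP libraries. The controls held 0 to 8 counts each, and every MyoD and Myf5 library was above them. It had the largest fitted change of the 10 genes with MyoD, 8.86 ± 0.54 on the log2 scale (edgeR adjusted p = 2.68e-05), and with Myf5 it was 4.58 ± 0.62 (edgeR adjusted p = 0.00549). The ratio of summed CPM of MyoD over GFP was 456 for Jsrp1, with a counting interval of 272 to 835.

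The junctophilins had smaller fold changes. Jph2 had 4.96 and 10.9 CPM with 1x and 2x MyoD, 3.85 and 4.91 CPM with 1x and 2x Myf5, 4.66 CPM untransduced, and 2.18, 2.02, 2.77, 2.64 and 1.72 CPM in the GFP libraries. The factor libraries were all above GFP, but the untransduced library was above 1x Myf5 and close to 1x MyoD and 2x Myf5. With MyoD, Jph2 rose by 1.88 ± 0.29 on the log2 scale against GFP (edgeR adjusted p = 0.00142). With Myf5 the log2 fold change was 1.00 ± 0.30 and missed the threshold (edgeR adjusted p = 0.0764), whereas DESeq2 called it (adjusted p = 0.0245). Jph1 had 1.86 and 2.72 CPM with 1x and 2x MyoD, 1.10 and 1.49 CPM with 1x and 2x Myf5, 0.770 CPM untransduced, and 1.42, 0.896, 1.25, 0.798 and 1.07 CPM in the GFP libraries. Both MyoD libraries were above GFP, whereas the Myf5 and GFP libraries overlapped. The log2 fold change was 1.13 ± 0.26 with MyoD (edgeR adjusted p = 0.00859). That call was lost against 1x GFP alone (1.11, edgeR adjusted p = 0.0526) and without 2x MyoD (0.81, edgeR adjusted p = 0.129).

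Where 1 library was left in a group, its spread was taken from the other groups. Leaving out 2x MyoD lowered several of the called values by over 1.5-fold without ending those calls. The log2 fold changes against GFP were then 6.93 for Ryr1, 4.77 for Stac3, 8.19 for Jsrp1, 1.18 for Jph2, 3.45 for Cacna1s and 5.40 for Cacng1, with edgeR adjusted p of 0.000167 to 0.0235. Cacnb1 stood at 0.71 (edgeR adjusted p = 0.0368). Without 1x MyoD, Cacna1s stood at 5.63 and Cacng1 at 7.45, and without 1x GFP, Cacng1 stood at 9.25, all still called. Against 1x GFP alone, where 15.1% of genes were called higher, 6 of the 7 members were called, all but Jph1, and without a filter Cacna1s stood at 5.72 and Cacng1 at 5.82.

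Myf5 against GFP asks the same of the other factor, with the same GFP libraries as control. Of the 7 members tested, 4 were called higher, namely Ryr1, Jsrp1, Stac3 and Cacna2d1, and none lower, against 3.81% of all genes tested called higher by edgeR and 2.29% lower. The median log2 fold change was 1.00 over the 7 members and -0.0028 over all genes. Ryr1 and Jsrp1 entered the test only through MyoD and Myf5 libraries, being under 1 CPM in every GFP library. The count of calls and the median are therefore not free of the filter. Both Myf5 libraries were above all 5 GFP libraries for 6 of the 10 genes (Ryr1, Cacna2d1, Cacng1, Stac3, Jph2 and Jsrp1), which held for 15% of the genes tested. Cacna2d1 rose by 0.31 ± 0.07 on the log2 scale (edgeR adjusted p = 0.0416). Without a filter, where 2.2% of genes were called higher, Ryr3 and Cacna1s had log2 fold changes of -0.39 ± 0.41 and -1.46 ± 1.26, the second from 2 counts against 7, and neither passed (edgeR adjusted p = 0.623 and 0.573). Jph1 stood at 0.28 ± 0.27 (edgeR adjusted p = 0.517). Without 2x Myf5 only Stac3 was still called, at 2.23, and Ryr1 (2.98, edgeR adjusted p = 0.0618) and Jsrp1 (3.73, edgeR adjusted p = 0.0618) were not. Against 1x GFP alone, where 1.03% of genes were called higher, Stac3 was again the only member called (3.24 ± 0.56, edgeR adjusted p = 0.0355), with Ryr1 at 3.99 (edgeR adjusted p = 0.0913) and Jsrp1 at 4.36 (edgeR adjusted p = 0.0852). Without a filter, where 0.88% of genes were called higher against 1x GFP, Ryr1 and Jsrp1 were called too (edgeR adjusted p = 0.0427 and 0.0400). Cacna2d1 lost its call without any single MOI library and without either Myf5 library (edgeR adjusted p from 0.0845 to 0.436).

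**Figure D2:**
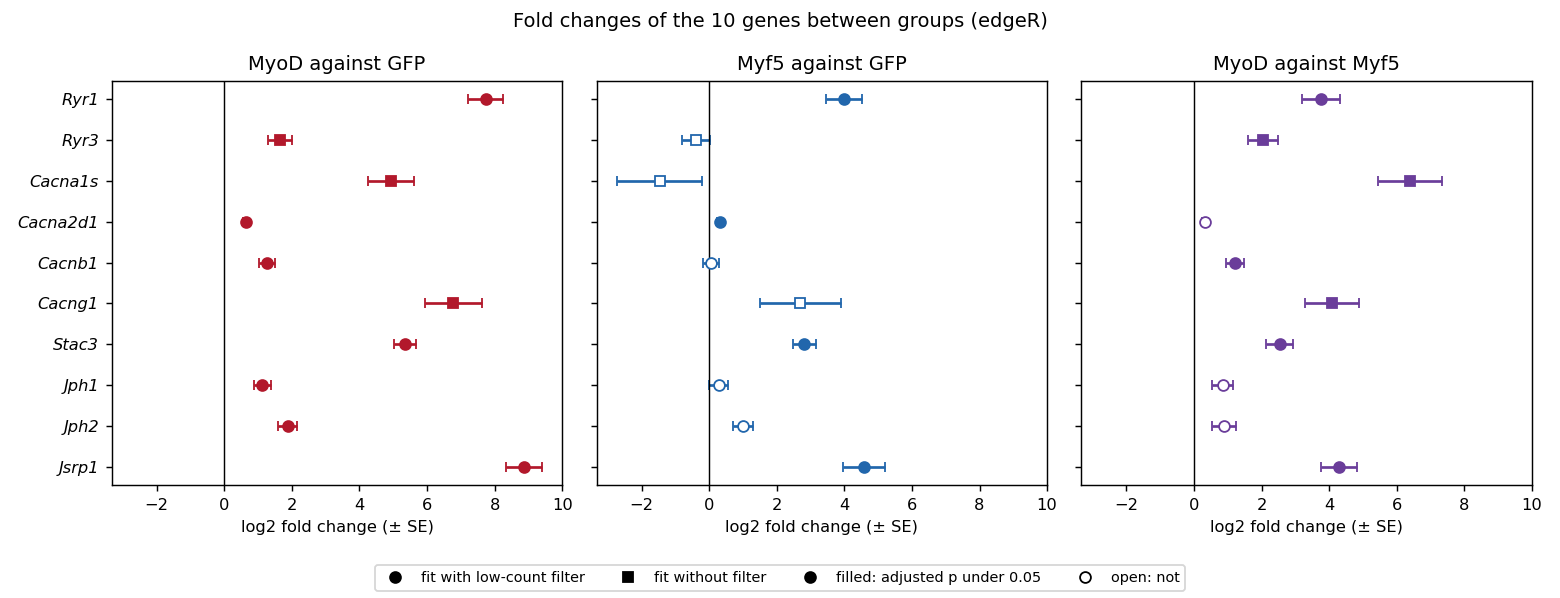
Log2 fold change (horizontal axes, same scale) of the 10 genes for MyoD against GFP, Myf5 against GFP and MyoD against Myf5, with standard errors. Circles come from the fit with the low-count filter and squares from the fit without it, and filled symbols passed an adjusted p of 0.05 in edgeR. All 10 symbols are filled for MyoD against GFP and 4 for Myf5 against GFP.

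MyoD against Myf5 tests the difference between the factors itself. Ryr1, Jsrp1, Stac3 and Cacnb1 were called higher with MyoD, 4 of the 7 members tested, against 4.21% of all genes tested in edgeR. No member was called lower, against 1.29% of all genes tested. Here too Ryr1 and Jsrp1 entered the test only through MyoD and Myf5 libraries, so the count is not free of the filter. The difference was 3.75 ± 0.56 on the log2 scale for Ryr1, 4.28 ± 0.53 for Jsrp1 and 2.54 ± 0.40 for Stac3 (edgeR adjusted p = 0.0229, 0.0203 and 0.0229). Cacnb1 was higher by 1.21 ± 0.28 (edgeR adjusted p = 0.0425). Jph2, Jph1 and Cacna2d1 differed by 0.88 ± 0.35, 0.85 ± 0.31 and 0.32 ± 0.09 and missed the threshold (edgeR adjusted p = 0.167, 0.138 and 0.0659). DESeq2 called Cacna2d1 (adjusted p = 0.0101). Without 1x MyoD, Jph2 stood at 1.35 and Cacna2d1 at 0.42 and both were called (edgeR adjusted p = 0.0156 and 0.0185), and without 2x MyoD Jph2 stood at 0.18 (edgeR adjusted p = 0.964). Without a filter, where 2.4% of genes were called higher, the 3 low members passed as well. Ryr3 differed by 2.03 ± 0.44 (edgeR adjusted p = 0.0339) and Cacng1 by 4.09 ± 0.79 (edgeR adjusted p = 0.0220). For Cacna1s (edgeR adjusted p = 0.00838) 176 counts with 2x MyoD stood against 2 with 2x Myf5, a CPM ratio of 78.5 with a counting interval of 21.4 to 653, and 42 counts with 1x MyoD against 0 with 1x Myf5.

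Within a dose the CPM ratio of MyoD over Myf5 was 15.4 at 1x and 12.5 at 2x for Ryr1, 21.8 and 18.1 for Jsrp1, and 5.80 and 5.65 for Stac3. For Cacnb1 it was 1.52 at 1x and 3.09 at 2x, and for Jph2 1.29 and 2.21. The ratio was somewhat lower at 2x than at 1x for the first 3 genes and higher at 2x for Cacnb1 and Jph2. Each ratio rests on 1 library a side, so these orders carry no replicate check. The factors themselves were not at equal levels at the same dose. Myod1 had 309 and 617 CPM with 1x and 2x MyoD, or 324 and 647 CPM per kb of coding length. Myf5 had 149.5 and 249 CPM with 1x and 2x Myf5, or 195.5 and 326 CPM per kb. Between the groups and at a given dose, factor and factor level therefore cannot be told apart. Per kb, 1x MyoD and 2x Myf5 were near in factor level. There Ryr1 stood at 48.8 and 9.48 CPM, Stac3 at 67.1 and 23.1 CPM and Jph2 at 4.96 and 4.91 CPM. That pair is 1 library each at unlike doses, and the part of factor level was not tested. All 4 calls were lost without 1x Myf5 (edgeR adjusted p from 0.198 to 0.243), without 2x Myf5 (0.0583 to 0.177) and without 2x MyoD (0.0727 to 0.306). The log2 difference of Ryr1 was then 3.19, 4.75 and 2.95, that of Jsrp1 3.78, 5.14 and 3.60, that of Stac3 2.15, 3.12 and 1.96, and that of Cacnb1 1.28, 1.17 and 0.65. The calls of Ryr3 and Cacng1 were lost without the same libraries, and that of Cacna1s without 1x Myf5 or 2x MyoD. Without 2x Myf5, Cacna1s was still called, against 0 counts.

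The 2x dose was set against the 1x dose of the same virus. CPM was higher at 2x than at 1x MyoD for all 10 genes, as for 44.3% of the genes tested, and at 2x than at 1x Myf5 for all but Cacnb1, as for 50% of the genes tested. In the fit of a dose effect common to both factors none of the 7 members was called, at an unadjusted p under 0.05 there were 4, and edgeR called 0.0217% of all genes higher (3 genes). Ryr1 came nearest, with a log2 difference of 1.44 ± 0.20 (edgeR adjusted p = 0.0770), followed by Jsrp1 at 1.25 ± 0.24 and Stac3 at 1.00 ± 0.19 (both edgeR adjusted p = 0.126). DESeq2 called these 3 (adjusted p of 1.03e-13, 3.51e-06 and 0.000439) among 284 genes.

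Each factor's own transcript scaled with dose, by a CPM ratio of 2.00 for Myod1 and 1.67 for Myf5. With MyoD, Cacna1s and Cacng1 had the largest ratios of 2x over 1x, 4.40 (95% counting interval 3.13 to 6.31) and 4.15 (3.001 to 5.85). Ryr1 had a ratio of 2.42 (2.33 to 2.51), Jph2 2.19 (1.94 to 2.47), Jsrp1 2.16 (2.05 to 2.28), Stac3 1.94 (1.88 to 2.01) and Cacnb1 1.90 (1.75 to 2.07). Cacna2d1, at 1.12 (1.09 to 1.15), and Jph1, at 1.46 (1.18 to 1.82), had intervals below the ratio of Myod1, and the intervals of Stac3, Cacnb1, Jph2 and Ryr3 held it. With Myf5, Ryr1 had a ratio of 2.98 (2.55 to 3.49), Jsrp1 2.60 (2.00 to 3.42) and Stac3 1.99 (1.83 to 2.17), all with intervals above the ratio of Myf5 itself. Cacng1 had the largest ratio, 4.99 (1.06 to 46.8), from 10 counts against 2. Jph1, at 1.36 (0.997 to 1.85), and Ryr3, at 1.496 (0.762 to 3.01), had intervals that held the ratio of Myf5, and those of Jph2, at 1.27 (1.08 to 1.503), Cacna2d1, at 1.08 (1.04 to 1.11), and Cacnb1, at 0.936 (0.821 to 1.07), lay below it. Myog, the gene of the differentiation factor myogenin, had ratios of 2.82 with MyoD and 4.97 with Myf5. These intervals cover counting error between 1 library and another and not the spread between replicates. The test of whether the dose effect differed between the factors has 1 library per factor and dose and takes its spread from the 5 GFP libraries alone. It called no gene, with 275 genes and 1 member at an unadjusted p under 0.05 in edgeR. That member was Cacnb1, with a difference of 1.05 ± 0.35 on the log2 scale (edgeR adjusted p = 1.00).

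**Figure D3:**
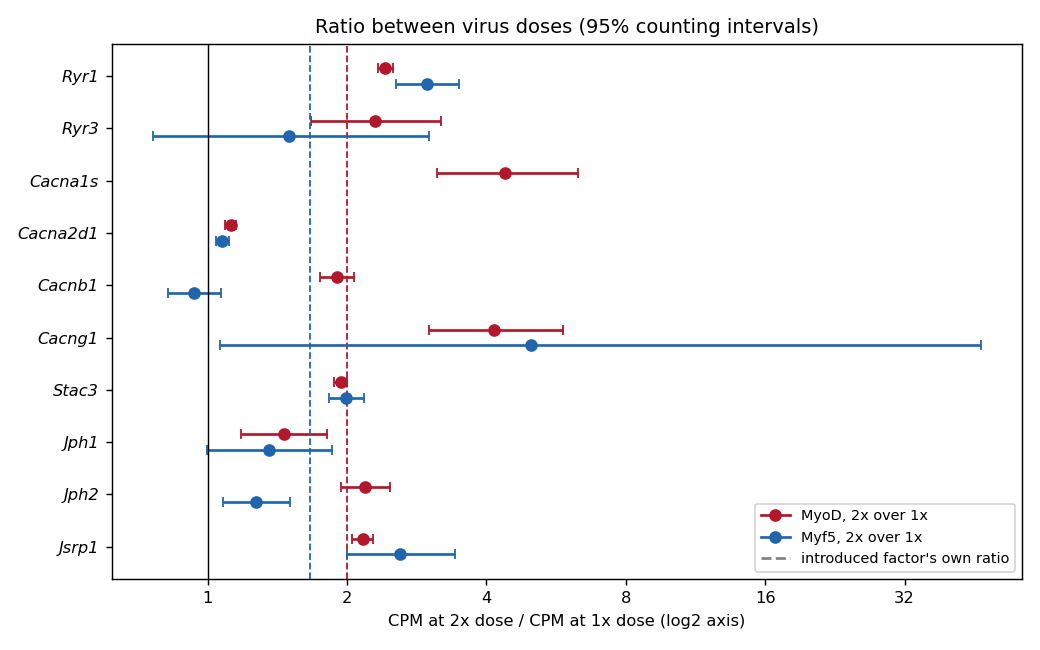
Ratio of CPM at the 2x dose over CPM at the 1x dose (horizontal log2 axis) for MyoD in red and Myf5 in blue, with 95% counting intervals, and dashed lines at the ratio of the introduced factor's own transcript. Cacna1s and Cacng1 lie farthest right with MyoD, and Cacna2d1 lies close to 1 with both factors. Cacna1s with Myf5 is not drawn because the 1x library held 0 counts.

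Levels of different genes can be set side by side only per length, here as CPM per kb of coding length. With 1x and 2x MyoD, Stac3 was the highest of the 10, at 62.2 and 121 CPM per kb. Cacna2d1 stood at 38.5 and 43.1 CPM per kb and Jsrp1 at 25.3 and 54.8 CPM per kb, so that their order turned between the doses. Below them came Cacnb1 (5.21 and 9.89), Ryr1 (3.22 and 7.78) and Jph2 (2.38 and 5.20 CPM per kb). Cacna1s was at 0.0938 and 0.412 CPM per kb, rank 9 of 10 at both doses, and only Ryr3 was lower. Per kb, Ryr1 exceeded Cacna1s by 34.3-fold with 1x MyoD and 18.9-fold with 2x MyoD, and Cacnb1 exceeded it by 55.5-fold and 24.0-fold (23.98). With 1x and 2x Myf5, Cacna2d1 was the highest, at 31.9 and 34.3 CPM per kb, and Stac3 came next at 10.7 and 21.4 CPM per kb. In all 5 GFP libraries Cacna2d1 (24.8 to 28.7 CPM per kb) was followed by Cacnb1 and then Stac3. Coding lengths were taken from GENCODE vM21 and run from 669 nt for Cacng1 to 15183 nt for Ryr1. A library selected on poly(A) can hold fewer reads of the far 5′ end of a long message, and that was not tested. Coding length leaves out the untranslated regions, whose reads may be counted. The order of the genes and the ratios between them therefore depend on this choice of length, and that was not tested either.

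**Figure D4:**
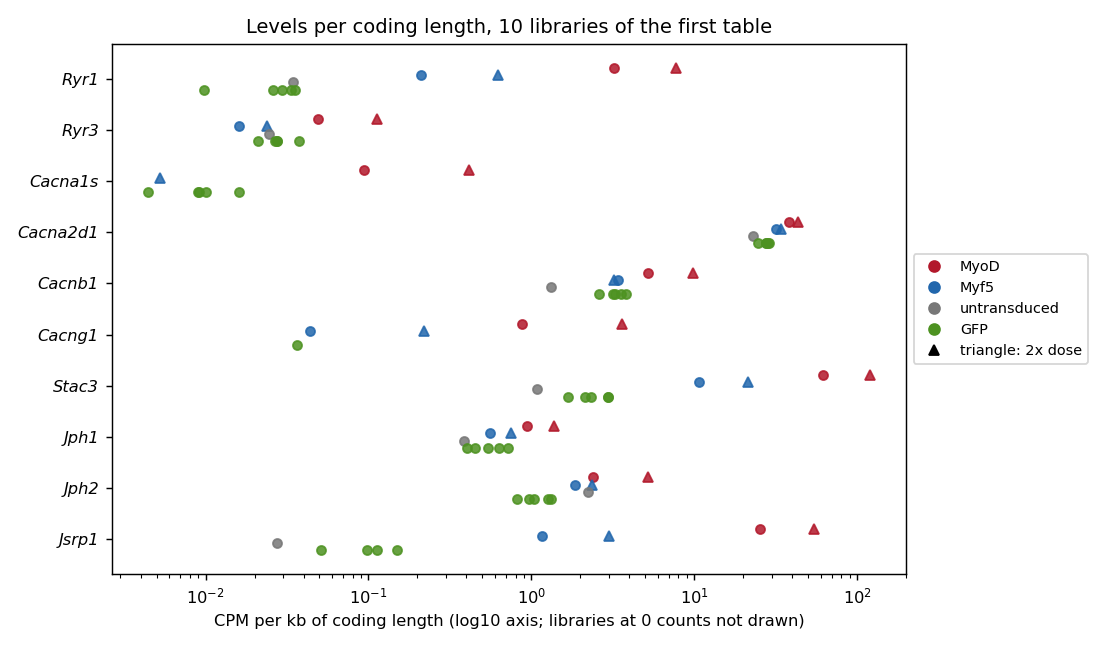
CPM per kb of coding length (horizontal log10 axis) of the 10 genes in the libraries of the first table, with triangles for the 2x dose and libraries at 0 counts not drawn. Stac3 is farthest right with MyoD and Cacna2d1 with Myf5, without virus and with GFP, and Cacna1s stays below 0.5 CPM per kb in every library.

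Untransduced cells were set against GFP to see how these genes stand without virus. With 1 untransduced library, the spread in this test comes from the MyoD, Myf5 and GFP libraries, and the lone library is assumed to vary like them. None of the 7 members was called by edgeR, at an unadjusted p under 0.05 there were 2, and 5.83% of all genes tested were called higher and 2.52% lower. The 2 were Jph2 (log2 fold change 1.10 ± 0.37, edgeR adjusted p = 0.0944) and Cacnb1 (-1.27 ± 0.34, edgeR adjusted p = 0.0542), and DESeq2 called Cacnb1 (adjusted p = 0.00304) and not Jph2. With 4.66 CPM without virus and at most 2.77 CPM with GFP, the level of Jph2 without virus was close to that of 1x MyoD, at 4.96 CPM. Along the MOI series of the GFP virus none of the 5 members tested was called, and none had an unadjusted p under 0.05 in edgeR, where 4.06% of 13383 genes were called as rising with MOI and 3.42% as falling. The slope per doubling of MOI was -0.17 ± 0.09 for Stac3, -0.20 ± 0.15 for Jph1, 0.13 ± 0.10 for Jph2, -0.04 ± 0.06 for Cacnb1 and -0.02 ± 0.02 for Cacna2d1 on the log2 scale.

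Chimera virus was set against the MyoD virus of the second batch, 1 library each, so no test was possible. Of the 8 members with at least 50 counts over both libraries, Jsrp1, Jph1 and Stac3 were past 2-fold lower with Chimera, against 2.32% of 13412 genes, and none was past 2-fold higher, against 2.68%. Jsrp1 had 7.30 CPM with Chimera and 31.4 CPM with MyoD, a ratio of 0.233 with a 95% counting interval of 0.197 to 0.274. Stac3 had 43.3 CPM with Chimera and 89.7 CPM with MyoD (ratio 0.483, 0.449 to 0.520). Jph1 rested on 17 counts with Chimera and 43 with MyoD (ratio 0.373, 0.200 to 0.668).

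Ryr1 had 59.8 CPM with Chimera and 103 CPM with MyoD (ratio 0.581, 0.545 to 0.620), and Cacnb1 11.5 CPM with Chimera and 19.9 CPM with MyoD (ratio 0.578, 0.498 to 0.671). Cacna2d1 stood at a ratio of 0.833 (0.791 to 0.878). Cacna1s was the only member with at least 50 counts above 1, with 40 counts against 26 and a ratio of 1.45 whose interval of 0.865 to 2.48 spans 1, as does that of Jph2 (0.808, 0.631 to 1.03). Ryr3 and Cacng1, with 14 and 15 counts with Chimera and 13 and 15 with MyoD, had ratios of 1.02 and 0.944. Myod1 was at 22.1 CPM with Chimera and 324 CPM with MyoD, Myf5 at 165 CPM with Chimera and 14.7 CPM with MyoD, and Myog at 300.3 CPM with Chimera and 705 CPM with MyoD. The fibroblast markers summed to 20351 CPM with Chimera and 15258 CPM with MyoD, and their part in these ratios was not tested.

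**Figure D5:**
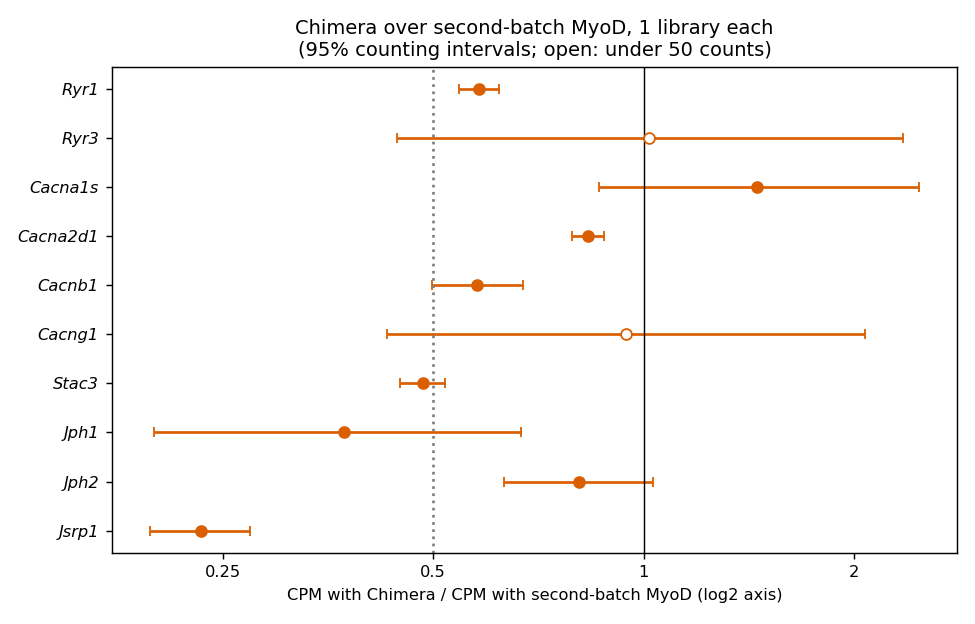
CPM with Chimera over CPM with second-batch MyoD (horizontal log2 axis) for the 10 genes, with 95% counting intervals and a dotted line at the 2-fold bound. Open circles have under 50 counts. Jsrp1, Jph1 and Stac3 lie left of the dotted line, and the intervals of Ryr3, Cacna1s, Cacng1 and Jph2 reach across 1.

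Genes around the coupling complex were read from 3 lists. The filter lets a gene near 0 in the controls enter only through libraries with MyoD or Myf5. Such a gene could not have been tested unless it differed, and which listed genes these are is not given here. Of 22 paralogs that are not part of the skeletal complex, 12 were tested, and with MyoD edgeR called 1 higher and 6 lower, against 21.4% and 20.9% of all genes tested. Cacna2d3, another alpha-2-delta subunit, rose by 1.33 ± 0.34 on the log2 scale. Cacna1g, a T-type calcium channel, fell by 1.31 (-1.305) ± 0.22 and Itpr1, an inositol trisphosphate receptor of the reticulum, fell by 0.64 ± 0.16. The median over the 12 was -0.52, against -0.03 over all genes. With Myf5, 1 of the 12 was called higher (Cacnb2) and none lower, against 3.81% and 2.29% of all genes tested.

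Of 20 genes of the calcium store and its release channel, 14 were tested, and with MyoD 9 were called higher and 2 lower (Asph and Calr), against 21.4% and 20.9% of all genes tested. The median log2 fold change was 1.10, against -0.03 over all genes. Hrc, a calcium-binding protein of the reticulum lumen, rose by 8.91 ± 0.77 on the log2 scale, Mrln, a micropeptide that inhibits the calcium pump, by 6.68 ± 0.55, and Atp2a1, the fast muscle calcium pump, by 5.18 ± 0.36 (edgeR adjusted p = 0.000116, 9.54e-05 and 4.41e-05). With Myf5, 4 of the 14 were called higher and none lower, against 3.81% and 2.29% of all genes, and Hrc, Mrln and Atp2a1 rose by 4.83 ± 0.87, 3.83 ± 0.62 and 2.64 ± 0.37. MyoD against Myf5 called 5 higher and none lower, against 4.21% and 1.29%. Casq1, the main calcium buffer of fast muscle, and Trdn, which anchors it to the release channel, were below the filter and stood at most at 0.709 and 0.0507 CPM in the first table.

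Of 14 genes of the transverse tubule and membrane excitability, 11 were tested, and with MyoD 5 were called higher and 1 lower, against 21.4% and 20.9% of all genes tested. The median log2 fold change was 0.35, against -0.03 over all genes. Ank1, whose small muscle isoform sits in the reticulum membrane, rose by 6.46 ± 0.54 on the log2 scale, and Kcnj2, an inward rectifier potassium channel, by 2.93 ± 0.42 (edgeR adjusted p = 9.66e-05 and 0.000990). Bin1, which shapes the tubule, rose by 1.27 ± 0.14. Clcn1, the chloride channel of muscle, fell by 0.89 ± 0.27. With Myf5, Ank1 alone was called, at 2.42 ± 0.58 (edgeR adjusted p = 0.0443), against 3.81% of all genes called higher.

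The 6 other genes whose log2 CPM over the 10 libraries of the first table was most like the mean profile of the 7 tested members were Rb1, Ccser2, Gpc1, Gm13807, March8 and Cd82, with Pearson r of 0.9959 to 0.9929 among 12796 candidates. Rb1 encodes the retinoblastoma protein, Gpc1 a glypican, and Cd82 a tetraspanin. Rb1 had 146 and 262 CPM with 1x and 2x MyoD, 75.2 and 97.3 CPM with 1x and 2x Myf5, 39.5 CPM untransduced and 41.2 to 51.1 CPM with GFP. Of the 7 members in the mean profile, Stac3 (r = 0.988) was closest to it and Jph2 (r = 0.820) farthest from it. The r of each of these members includes its own values. The 10 libraries fall into 4 groups, so these values describe likeness over few groups and carry no test.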

How the data were processed

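Expression in 12 poly(A) libraries of the double-null MEFs was taken from 2 tables of 37287 gene IDs. Per the submitters' processing notes, CASAVA 1.8.2, TopHat2 2.0.8 and mm9 were used; the counting tool, annotation release and strand setting are not given in the sources used here. In 1 table (10 libraries) the values are expected counts as deposited, with fractions (tolerance 1e-06) in 1982 to 2767 genes of a library, and these were rounded. The table with 2 libraries has whole-number counts as deposited. Its 37 mitochondrial genes hold 4.05% and 4.18% of its counts and none of the other's, so the tables were not fitted together. Symbols came from GENCODE vM21 for 32610 IDs, and IDs without one hold 1.26% to 1.45% of the counts of each library.

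In R 4.3.3, edgeR 4.0.16 (TMM, quasi-likelihood, two-sided, Benjamini-Hochberg over all genes tested) was fitted to all 10 libraries of the first table with 6 residual degrees of freedom for the groups, 5 for the dose effect and 4 for its difference between factors. The MOI slope used the 4 MOI libraries alone. Genes had to reach 1 CPM in 2 or more libraries, and Ryr3, Cacna1s and Cacng1, which fell below it, were read from the fit without a filter, chosen after the data were seen. No library was a copy of another of its group (chi-square of their counts over its degrees of freedom, 1.92 to 124). The fit was tested on simulated data. DESeq2 1.42.0 was an alternative. Ratios between single libraries carry exact 95% binomial intervals, which cover counting error only. Likeness used log2(CPM + 0.1) and symbols with a mean CPM of at least 1. Chimera calls needed 2-fold and 50 counts.

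Members and lists were chosen with earlier results of these data known. Besides the members, the text names Myod1, Myf5 and Myog, the 3 largest called changes with MyoD in each list with a mean CPM of at least 1 in MyoD or GFP, and the 6 genes most like the members in profile. A gene that falls under this rule is not reported here by name, though list counts include it. Ryr2, Cacnb2, Asph, Calr, Casq1, Trdn, Bin1, Clcn1, Csf1r, Cd68, Lyz2, Col1a2, Thy1 and Dcn were named after their values were seen.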

Additional observations from a re-analysis of the deposited data

Results flagged for a closer look

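In 2 genes 1 of the 5 GFP libraries stood far from the others. The nominal chance rate of such a flag, about 1 of 20 groups of libraries, cannot be applied to them. In both genes the 4 MOI libraries were all at 0 CPM, so any count in 1x GFP sets it apart. Cacng1 had 0.0245 CPM in 1x GFP, from 2 counts, and 0 CPM in each of the 4 MOI libraries. Those are shallower (17.9 to 22.4 M counts against 81.5 M), and a count of 0 allows up to 0.134 to 0.168 CPM in them, so the values cannot be told apart. Myog had 0.503 CPM in 1x GFP, from 41 counts, and 0 CPM in the 4 MOI libraries, above what their depth allows; the cause was not tested.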

How the results depend on the processing

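Genes called by edgeR for MyoD against GFP numbered 5856, and 1833 to 8073 when 1 library was left out, the fewest without 2x MyoD; members called higher were 7, and 6 to 7. For Myf5 against GFP 843 genes were called, 163 against 1x GFP alone, 2143 with DESeq2 and 57 to 5063 when 1 library was left out; members called higher were 4, then 1 against 1x GFP and 1 to 4. For MyoD against Myf5 761 genes were called, 1750 with DESeq2 and 2 to 2100 when 1 library was left out; members were 4, then 7 without a filter and 0 to 6. The doses 1x and 2x are the only number the factors share and do not pair cultures. With dose as a replicate block 1400 genes and 5 members were called, the added one being Cacna2d1 (0.32, edgeR adjusted p = 0.0284), and the dose differences of the factors correlated at 0.4 across genes. For 2x against 1x 3 genes were called, 284 with DESeq2 and 16 without a filter, and 0 members, 3 with DESeq2 and 1 without a filter. The MOI slope was called for 1002 genes and for 338 to 1552 when 1 library was left out. Cacnb1 changed sign in 3 settings, none past the threshold, to -0.026 without 1x GFP and -0.0015 without 1x Myf5 for Myf5 against GFP (range -0.026 to 0.108 with 1 library left out), and to a slope of 0.064 without MOI 15 (range -0.139 to 0.064). Of the other values per gene, 283 log2 fold changes, 30 mean CPM and 20 Chimera ratios kept their direction and side of the threshold or moved within their error, 34 lost a call and 9 gained one. Depth limits Cacna1s, Cacng1 and Ryr3, and groups of 1 or 2 libraries limit the rest; the causes were not tested.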

Other observations

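The tables can be set side by side only as values, with mitochondrial genes left out of the totals, since they were made separately. Ryr1 then had 62.4 CPM with Chimera, 107 CPM with second-batch MyoD, 48.8 CPM with first-batch 1x MyoD, 3.18 CPM with 1x Myf5 and 0.393 CPM with 1x GFP. Stac3 had 45.2 CPM with Chimera, 93.6 CPM with second-batch MyoD, 67.1 CPM with first-batch 1x MyoD, 11.6 CPM with 1x Myf5 and 1.82 CPM with 1x GFP. Cacna1s had 1.66 CPM with Chimera, 1.15 CPM with second-batch MyoD, 0.521 CPM with first-batch 1x MyoD, 0 CPM with 1x Myf5 and 0.0245 CPM with 1x GFP. Jsrp1 had 7.60 CPM with Chimera, 32.8 CPM with second-batch MyoD, 25.2 CPM with first-batch 1x MyoD, 1.16 CPM with 1x Myf5 and 0.0981 CPM with 1x GFP. Jph1 had 0.706 CPM with Chimera, 1.90 CPM with second-batch MyoD, 1.86 CPM with first-batch 1x MyoD, 1.10 CPM with 1x Myf5 and 1.07 CPM with 1x GFP. Myf5 itself was at 172 CPM with Chimera and 149.5 CPM with 1x Myf5.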
